A study of Mus musculus with 120 samples.

Results

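Slc17a6, Slc17a7 and Slc30a3 encode the vesicular glutamate transporters VGLUT2 and VGLUT1 and the vesicular zinc transporter ZnT3. They were chosen by gene symbol, and all 3 were found among the 16538 genes of the count table. Their levels were read in 120 bulk RNA-seq libraries of mouse thalamic projection neurons from 22 nuclei. Neurons were labelled from a region to which they project, thalamic areas were microdissected and dissociated, and fluorescent cells were picked by hand, 14 to 200 per library (median 60.5). The tracer was DiI, a lipophilic membrane dye, in 92 libraries and the retrograde viral vector rAAV2retro-GFP or rAAV2retro-tdTom in 19 and 9.

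A retrograde tracer placed in the striatum labelled 7 nuclei, in 30 libraries. These were the paraventricular (PVT, 3 libraries), intermediodorsal (IMD, 4), paracentral (PCN, 4), central lateral (CL, 4) and parafascicular (PF, 4) nuclei, the subparafascicular area (SPA, 4) and the central medial nucleus (CM), with 4 AAV libraries and 3 DiI libraries. All striatal libraries but the CM libraries made with DiI used AAV. A tracer placed in the cortex labelled the other 15 nuclei, in 90 libraries. The lateral posterior (LP, 9) and dorsal lateral geniculate (LGd, 5) nuclei were labelled from primary visual cortex, in mice whose eyes had also received CTB. The posterior nucleus (PO, 7) and ventrobasal complex (VB, 4) were labelled from barrel cortex. The ventral anterior (VA, 8), ventromedial (VM, 6) and ventrolateral (VL, 6) nuclei were labelled from primary motor cortex, in mice with a further virus in SNr and DCN. Retrosplenial cortex gave the anterodorsal (AD, 4), anteroventral (AV, 8) and laterodorsal (LD, 5) nuclei. Cingulate cortex gave reuniens (RE, 8), the interanterodorsal nucleus (IAD, 3) and the anteromedial nucleus (AM), with 4 DiI libraries and 1 AAV library. The mediodorsal nucleus (MD, 6) came from orbital cortex and the parvicellular ventral posteromedial nucleus (VPMpc, 6) from insular cortex. All cortical libraries but the AM library made with AAV used DiI, so target and tracer cannot be told apart except through CM and AM. All mice were recorded as wildtype but that of 1 VA library (33.7-Gad2), and ages ran from 55 to 447 days, with 7 libraries of AV, LD and VPMpc from mice over 400 days and 3 ages not recorded. All libraries of PVT, IMD, CL, PF, SPA and AM came from females. All of AD, AV, LD, LGd, LP, PO, VB, MD and CM by DiI came from males, and the remaining groups held both sexes. CM stands below for its AAV libraries and AM for its DiI libraries unless the tracer is named.

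Vesicular glutamate transporters fill synaptic vesicles with glutamate, driven by the proton gradient that the vesicular ATPase builds. VGLUT2 is the main form of thalamic and other subcortical neurons, and VGLUT1 that of the cerebral cortex and hippocampus, and many thalamic relay neurons hold mRNA of both. ZnT3 moves zinc into synaptic vesicles and is best known from zinc-rich glutamatergic terminals of the cortex and hippocampus, where the AP-3 coat helps sort it to vesicles.

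In the mm10 annotation (GENCODE vM21), Slc17a6 (ENSMUSG00000030500.6) lies on the plus strand at chr7:51622006-51671119, and Slc17a7 (ENSMUSG00000070570.5) on the plus strand at chr7:45163949-45176142. Slc30a3 (ENSMUSG00000029151.14) lies on the minus strand at chr5:31086106-31108237. Their principal transcripts hold 12, 12 and 8 exons and 4137, 2915 and 2089 bases. No annotated gene shared exon bases with any of them. The longest stretch that transcripts of Slc17a6 and Slc17a7 have in common was 21 bases.

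The sequences just upstream of the start sites are shown because the transporters differ so widely in range across nuclei. RefSeq (GRCm38.p6) gave 1 start for Slc17a7 and 2 each for Slc17a6 and Slc30a3. The stretch before 1 start per gene is printed 5′ to 3′ on the gene's strand, without bases inside an annotated exon. Capitals mark the GC box, GGGCGG on either strand, which can bind Sp-family factors; where 2 matches overlap they run together. The coordinates are chr7:51621580-51621829 for Slc17a6, chr7:45163671-45163920 for Slc17a7 and chr5:31093616-31093777 for Slc30a3 (the start of its principal transcript).
Slc17a6: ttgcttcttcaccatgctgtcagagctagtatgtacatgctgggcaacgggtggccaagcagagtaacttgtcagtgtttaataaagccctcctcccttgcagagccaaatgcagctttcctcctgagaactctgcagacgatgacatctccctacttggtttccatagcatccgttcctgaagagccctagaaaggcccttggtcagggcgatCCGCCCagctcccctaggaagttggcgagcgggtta
Slc17a7: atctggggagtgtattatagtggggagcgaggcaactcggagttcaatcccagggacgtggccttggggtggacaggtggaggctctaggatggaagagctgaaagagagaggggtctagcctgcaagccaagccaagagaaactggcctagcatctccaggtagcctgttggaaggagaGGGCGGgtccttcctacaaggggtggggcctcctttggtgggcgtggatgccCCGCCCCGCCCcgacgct
Slc30a3: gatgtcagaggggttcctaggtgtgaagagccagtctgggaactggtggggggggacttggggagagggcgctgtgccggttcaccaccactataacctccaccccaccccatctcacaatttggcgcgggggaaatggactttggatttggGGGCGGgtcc
The printed stretches hold 1 match in Slc17a6, 3 in Slc17a7 and 1 in Slc30a3, whose stretch is 162 bases long after exon bases were left out. In the whole 250 bases before these starts the matches number 1, 3 and 2, and before the other start of Slc17a6 and of Slc30a3 there is none. Of 32841 mouse promoters in the same table, 32.7% held at least 1 match in the 250 bases before the start. A match is a description of the letters and not a measured binding site.

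Total counts per library ran from 8159497 to 26444831 (median 15571299.5). Levels below are CPM (read counts scaled to a common library total) with TMM-scaled library sizes, given as mean ± SD over libraries, and a gene is called where edgeR's quasi-likelihood test gave an adjusted p (Benjamini-Hochberg over 16527 genes) under 0.05. The deposited sample table names 85 animals, none of them more than once within a group; 13 libraries pool 2 animals, and 44 animals gave cells to more than 1 of the 24 groups, so libraries of different nuclei are not all independent. In bulk samples, fewer cells with a transcript and less transcript per cell cannot be told apart. Tcf7l2, a transcription factor that defines thalamic neurons, stood at 813 to 4555 CPM in every library. Summed over all 6 thalamic projection neuron markers the median was 2936 CPM in striatum-labelled libraries (1813 to 3977 CPM) and 5542 CPM in cortex-labelled ones (1762 to 11996 CPM). Of these, Gbx2 had no read in 4 libraries and Grid2ip in 1, and Prkcd fell as low as 1.92 CPM, with medians of 70.7 and 716 CPM. Of the cortical and hippocampal neuron markers only Bhlhe22 was in the table, with 3.62 to 58.8 CPM in the striatum-labelled libraries and 0 to 39.1 CPM in the cortex-labelled ones; the other 6 were not analysed here. The summed oligodendrocyte markers reached 48.2 CPM at most in striatum-labelled libraries and 3206 CPM in cortex-labelled ones, with medians of 23.9 and 19.1 CPM.

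All 3 transporters differed between nuclei. The test of equal means over the 22 nuclei gave adjusted p = 1.32e-11 for Slc17a6, 9.21e-22 for Slc17a7 and 7.19e-21 for Slc30a3, in an atlas where 55.1% of all genes were called. In tests of all pairs of the 22 nuclei, Slc17a6 was called in 65 (28.1%), Slc17a7 in 121 (52.4%) and Slc30a3 in 109 (47.2%), against 6.56% of all gene-by-pair tests and a median of 6 pairs per gene. Only 110 of 16527 genes were called in more pairs than Slc17a7. Among the 21 pairs of striatum-labelled nuclei none of the 3 was called, where 0.499% of gene-by-pair tests were. In edgeR's test, Slc17a6 was at an unadjusted p under 0.05 in 0 of these 21 pairs, Slc17a7 in 4 and Slc30a3 in 7. Among the 105 pairs of cortex-labelled nuclei Slc17a6, Slc17a7 and Slc30a3 were called in 22, 40 and 24, where 6.9% of gene-by-pair tests were called. Among the 105 pairs across the 2 kinds of target they were called in 43, 81 and 85, where 7.44% were called.

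**Figure D1:**
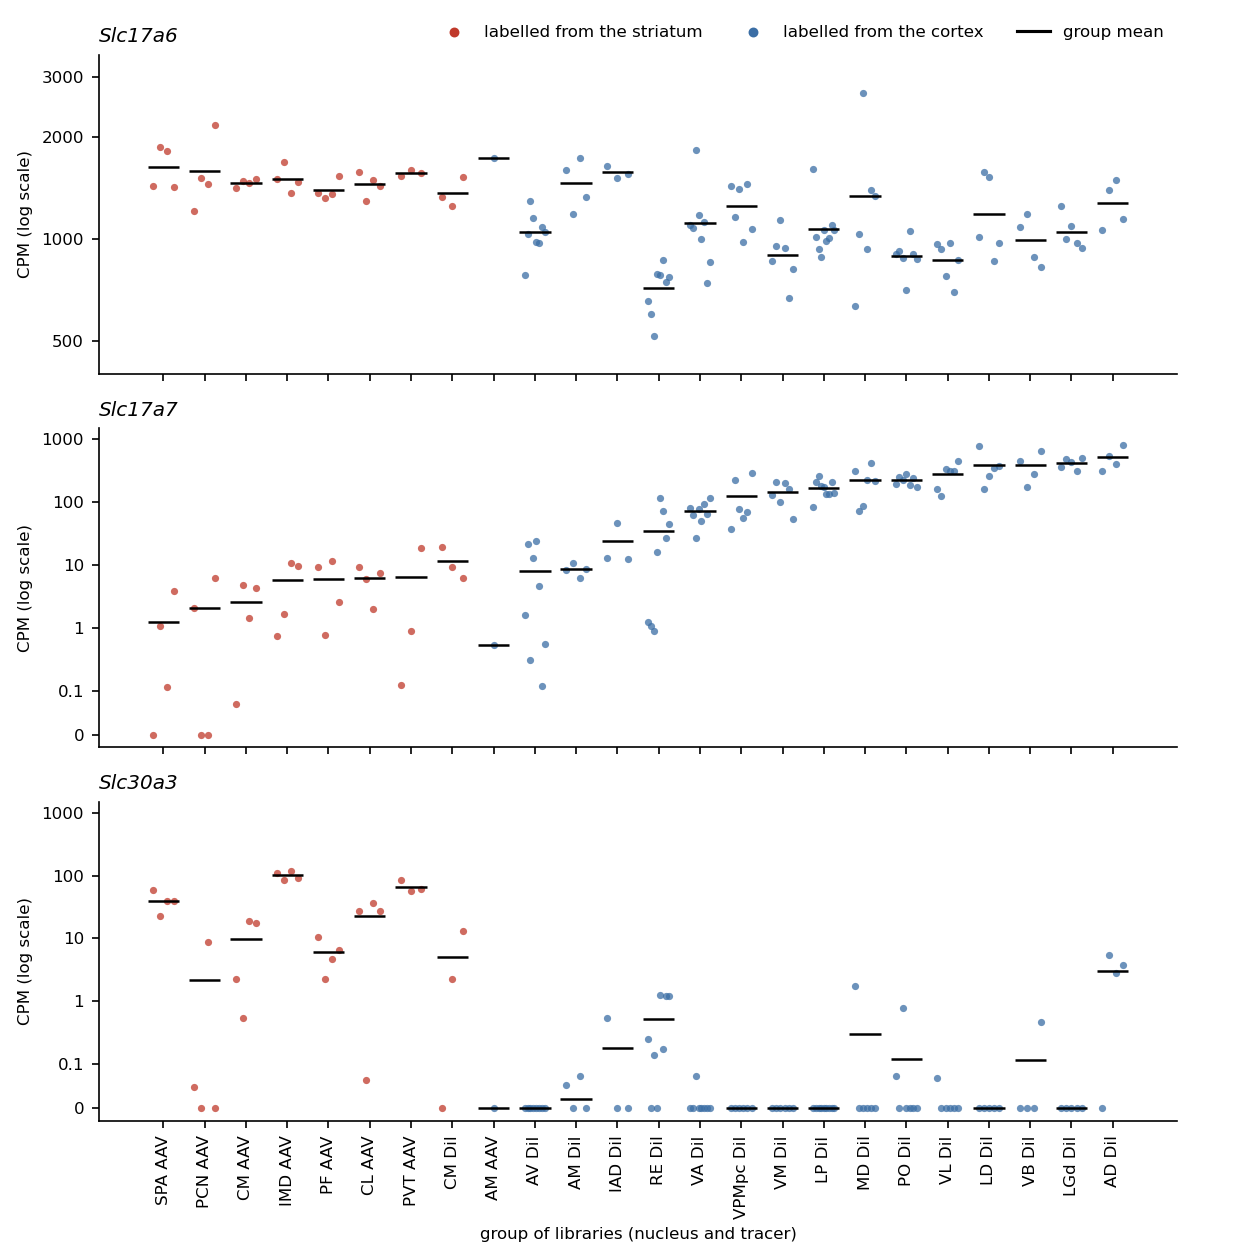
Level of Slc17a6, Slc17a7 and Slc30a3 (CPM, log axes; libraries without a read are drawn at 0) in each of 120 libraries (points), by nucleus and tracer, with the mean of each group as a bar. Slc17a6 stays between 518 and 2701 CPM in all libraries, Slc17a7 runs from 0 to 818 CPM, and Slc30a3 is above 10 CPM in 18 libraries, all labelled from the striatum.

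Slc17a6, the main thalamic transporter, had the narrowest range. Its highest nucleus mean, in SPA, was 2.28-fold its lowest, in RE, and every nucleus overlapped its neighbour in the order. RE was lowest (717 ± 115 CPM, n = 8): its libraries lay between 518 and 868 CPM with a median of 759 CPM, and RE was called lower than 17 of the 21 other nuclei. Next came VL (869 ± 111 CPM, n = 6), PO (893 ± 103 CPM, n = 7) and VM (897 ± 156 CPM, n = 6), called lower than 12, 10 and 11 others.

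VB (996 ± 169 CPM, n = 4), AV (1045 ± 149 CPM, n = 8), LGd (1052 ± 124 CPM, n = 5), LP (1073 ± 213 CPM, n = 9) and VA (1113 ± 325 CPM, n = 8) followed. LD (1189 ± 332 CPM, n = 5), VPMpc (1252 ± 206 CPM, n = 6) and AD (1274 ± 200.4 CPM, n = 4) stood above these. MD had the widest spread, with 636, 1037, 2701, 934, 1395 and 1338 CPM in its 6 libraries (1340 ± 722 CPM). The single MD library at 2701 CPM was the highest of all 120. At the upper end the striatum-labelled nuclei lay close together: PF 1396 ± 95.4, CL 1451 ± 118, CM 1467 ± 34.9, IMD 1507 ± 132, PVT 1564 ± 33.9, PCN 1586 ± 410 and SPA 1635 ± 239 CPM (n = 4, and 3 for PVT). The cortex-labelled nuclei AM (1464 ± 249.5 CPM, n = 4) and IAD (1572 ± 63.6 CPM, n = 3) stood among them. SPA was called higher than 9 other nuclei, PCN than 8, IMD and PVT than 7 each.

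Slc17a7, the transporter typical of cortical neurons, divided the nuclei over a 416-fold range of means. AD had the highest level, with 312, 544, 398 and 818 CPM in its 4 libraries (518 ± 222 CPM). LGd followed with 365, 492, 432, 316 and 503 CPM (421 ± 80.7 CPM), and VB with 453, 175, 281 and 653 CPM (390 ± 209 CPM). These were first-order relay nuclei of the visual and somatosensory pathways and the head-direction nucleus AD, and their libraries overlapped.

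LD gave 776, 159, 262, 342 and 370 CPM (382 ± 235 CPM, n = 5). VL, the motor relay, had a median of 307 CPM with libraries from 124 to 457 CPM (n = 6). The 2 VL libraries of the earlier amplification date held 124 and 161 CPM and the 4 of the later date 306 to 457 CPM. The part of the date in this split was not tested. PO (221 ± 38.3 CPM, n = 7), MD (221 ± 132 CPM, n = 6), LP (169 ± 52.4 CPM, n = 9), VM (143 ± 59.7 CPM, n = 6) and VPMpc (126 ± 106 CPM, n = 6) formed the middle of the order. Within VPMpc 2 libraries stood at 228 and 291 CPM and the other 4 at 37.2 to 77.1 CPM. AD, LGd, LD and VB were each called higher than 12 other nuclei, VL than 11, and PO, LP and MD than 10 each.

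VA (71.5 ± 27.4 CPM, n = 8) was called higher than 9 nuclei and lower than 4. RE held 1.25, 1.06, 0.897, 16.1, 115, 71.8, 27.2 and 45.5 CPM in replicates 1 to 8. The first 4 of these were amplified on 1 date and the other 4 on another, and the ranges of the 2 dates (0.897 to 16.1 and 27.2 to 115 CPM) did not overlap; the part of the date was not tested. IAD held 12.8, 46.0 and 12.4 CPM. AM held 8.2, 10.9, 6.3 and 8.46 CPM (8.47 ± 1.89 CPM), and the gap between IAD and AM was the only one between neighbours in the order where libraries did not overlap.

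AV stood apart from its neighbours AD and LD, with a median of 3.09 CPM and libraries from 0.118 to 23.6 CPM (8.11 ± 9.81 CPM, n = 8). The striatum-labelled nuclei filled the bottom of the order, from PVT (0.125, 0.894 and 18.3 CPM) down to SPA (0, 1.06, 0.112 and 3.81 CPM). PCN had no read in 2 of its 4 libraries and 2.07 and 6.19 CPM in the others. CL, PF, IMD and CM had means of 6.11, 6.01, 5.66 and 2.61 CPM. SPA was called lower than 13 other nuclei, AV, CM and PCN than 12 each.

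Slc30a3, the zinc transporter, was found almost wholly in nuclei labelled from the striatum. IMD had the highest level, with 111, 84.8, 119 and 91.8 CPM (102 ± 16.05 CPM). PVT followed with 84.5, 56.1 and 60.1 CPM (66.9 ± 15.4 CPM), and SPA with 58.8, 22.7, 38.7 and 39.5 CPM (39.9 ± 14.8 CPM). Every library of these 3 nuclei held at least 22.7 CPM, and the lowest IMD library lay just above the highest PVT library.

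CL held 27.8, 36.8 and 27.6 CPM in 3 libraries and 0.0551 CPM in the other. CM held 2.22, 0.543, 19.2 and 17.7 CPM, the lower 2 from males and the higher 2 from females. CM by DiI, all from males, held 0, 2.24 and 13.0 CPM, and the part of sex was not tested. PF held 10.6, 2.23, 4.63 and 6.64 CPM (6.03 ± 3.55 CPM). PCN was the exception among striatum-labelled nuclei: 3 of its libraries held 0.043, 0 and 0 CPM and only replicate 3 held 8.83 CPM.

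Among the cortex-labelled nuclei AD alone had a mean above 1 CPM, with 0, 5.4, 2.83 and 3.73 CPM (2.99 ± 2.26 CPM). It was called higher than 10 other nuclei. RE had reads in 6 of 8 libraries, at up to 1.24 CPM. MD held 1.78 CPM in 1 library and no read in the other 5. Of the 90 cortex-labelled libraries 72 had no Slc30a3 read and 7 reached 1 CPM. AV, LD, LGd, LP, VM and VPMpc had none in any of their 39 libraries, which allows at most 0.0246 to 0.0551 CPM per nucleus (3 counts over the summed libraries, counting error only).

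The level of each gene divided by the length of its principal transcript allows Slc17a7 and Slc17a6 to be compared. On this scale Slc17a7 made up 36.2 ± 5.91% of the sum of both in LGd (n = 5), 35.7 ± 10.3% in AD (n = 4), 34.6 ± 14.8% in VB (n = 4), 31.1 ± 15.5% in LD (n = 5) and 30.9 ± 11.1% in VL (n = 6). PO held 26.1 ± 5.22% (n = 7), MD 21.3 ± 13.6% (n = 6), LP 18.7 ± 5.99% (n = 9) and VM 18.3 ± 7.06% (n = 6). Slc17a6 was thus the larger of the 2 in every nucleus mean.

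Slc17a7 exceeded Slc17a6 per length in 3 of 120 libraries, AD replicate 4 (50.3%), LD replicate 1 (52.1%) and VB replicate 4 (52.9%). With the length of all annotated exons in place of the principal transcript these shares were 41.6, 43.4 and 44.2%, and Slc17a7 exceeded Slc17a6 in no library. VPMpc (12.3 ± 9.92%), VA (8.99 ± 4.05%), RE (5.49 ± 6.06%) and IAD (2.11 ± 1.74%) held smaller shares. AV (1.1 ± 1.33%) and AM (0.854 ± 0.328%) were the lowest of the cortex-labelled nuclei. In the 30 striatum-labelled libraries the share ran from 0 to 1.99%. Slc30a3 per length reached 48.7 CPM per kb in IMD, where Slc17a7 stood at 1.94 ± 1.79 and Slc17a6 at 364 ± 31.9 CPM per kb (n = 4).

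**Figure D2:**
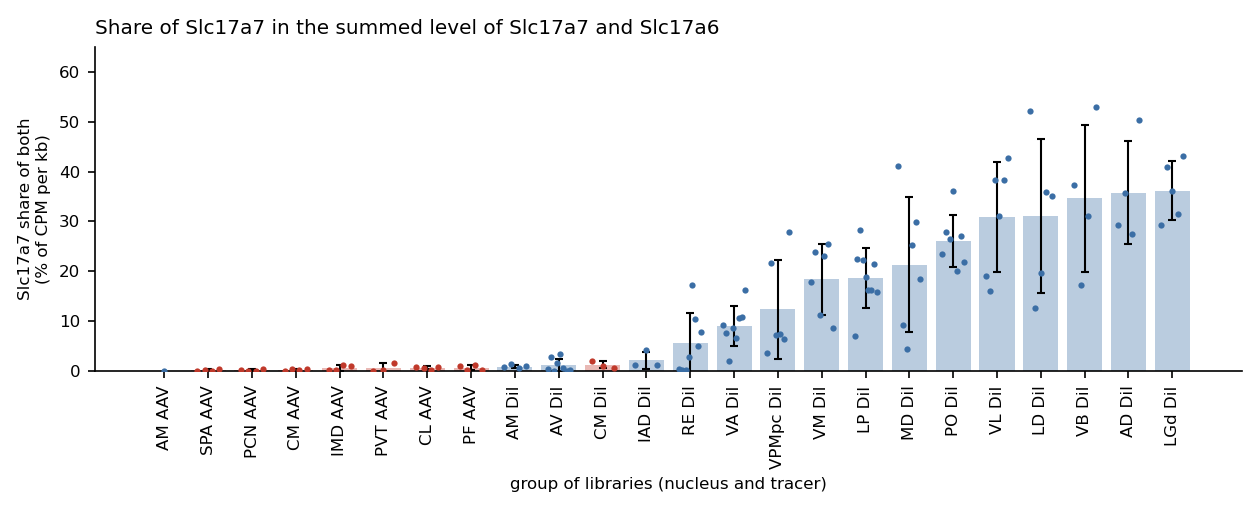
Share of Slc17a7 in the summed level of Slc17a7 and Slc17a6 (percent of CPM per kb of principal transcript) for each nucleus and tracer, ordered by mean; bars are means, error bars SD, points libraries, red labelled from the striatum and blue from the cortex. The share is at most 1.99% in every striatum-labelled library and reaches 36.2% on average in LGd.

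Striatum-labelled and cortex-labelled nuclei were compared with counts summed per nucleus, 7 against 15. Slc17a7 was lower in the striatum-labelled nuclei, at 4.54 ± 2.38 CPM against 208 ± 176 CPM over nuclei, with nucleus levels of 1.37 to 6.79 and 8.37 to 539 CPM that did not overlap with CM taken from AAV (log2 fold change -5.51, SE 0.823, edgeR adjusted p = 0.000115). Slc30a3 was higher, at 37.2 ± 38.3 against 0.313 ± 0.833 CPM (6.96, SE 1.15, adjusted p = 0.000281); the nuclei overlapped only through AD, at 3.27 CPM, and PCN, the lowest striatum-labelled one, at 2.46 CPM. Slc17a6 was higher by a smaller amount, at 1567 ± 75.2 against 1108 ± 235 CPM (0.50, SE 0.119, adjusted p = 0.00494), with overlapping nuclei. In this comparison 18.4% of 15440 genes were called, 8.58% higher and 9.8% lower.

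Library by library, 73 of 90 cortex-labelled libraries had more Slc17a7 than the highest striatum-labelled library (19.0 CPM). For Slc30a3, 20 of 30 striatum-labelled libraries had more than the highest cortex-labelled library (5.4 CPM). Bhlhe22 also stood higher in striatum-labelled libraries (median 21.8 against 0 CPM), and in AD its range was 0.507 to 27.3 CPM. Gpr151, a marker of habenula neurons and the only 1 of 6 such markers in the table, did so too (median 13.0 CPM, 0 to 60.2, against 0.635 CPM, 0 to 42.3), with its highest level in IMD and 0 to 1.57 CPM in AD; the other 5 were not analysed here. The part of either in the differences between targets was not tested.

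Dates, tracers and sex were spread unevenly over the 2 kinds of target. Dates and tracers were checked where the design allowed, and the part of sex was not tested. On the 2 amplification dates that held libraries of both kinds, all 3 genes were called in the same direction (log2 fold changes 0.54, -4.05 and 11.7, with edgeR adjusted p = 0.0323, 0.00219 and 3.68e-06, for Slc17a6, Slc17a7 and Slc30a3), where 5.95% of genes were called. That fit used only 8 sums of nucleus and date, with the date as a block. The striatum-labelled sums were IMD and PVT on the earlier date and CM by DiI on the later one. The cortex-labelled sums were VA and VL on both dates and VM on the later one. VA and VL thus entered on both dates, and IMD and PVT shared mice, so the sums are not all independent. One of these dates compared CM by DiI with VA, VL and VM by DiI. There Slc17a7 stood at 6.29 to 19.0 CPM in the 3 CM libraries and 53.9 to 457 CPM in the 11 others, without overlap. Slc30a3 was 0, 2.24 and 13.0 CPM in CM and had no read in the others. With CM taken from its DiI libraries the log2 fold changes were 0.48, -5.15 and 6.92, but the nuclei then overlapped in Slc17a7: CM stood at 11.9 CPM, above 2 cortex-labelled nuclei, AM and AV.

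Within CM, Slc17a7 stood at 0.0617, 4.76, 1.4 and 4.21 CPM by AAV and at 19.0, 9.41 and 6.29 CPM by DiI. These ranges did not overlap, but the difference was not called (log2 fold change -2.14, SE 1.01, adjusted p = 0.76, where 0.00605% of genes were called). The single AM library by AAV held 0.534 CPM of Slc17a7 against 6.3 to 10.9 CPM in the 4 by DiI. It had no Slc30a3 read and 1733 CPM of Slc17a6. CM by AAV and CM by DiI shared no mouse and no amplification date, and only CM by AAV held females. The AM library by AAV was amplified on another date than those by DiI. Tracer and date therefore cannot be told apart within CM or AM.

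**Figure D3:**
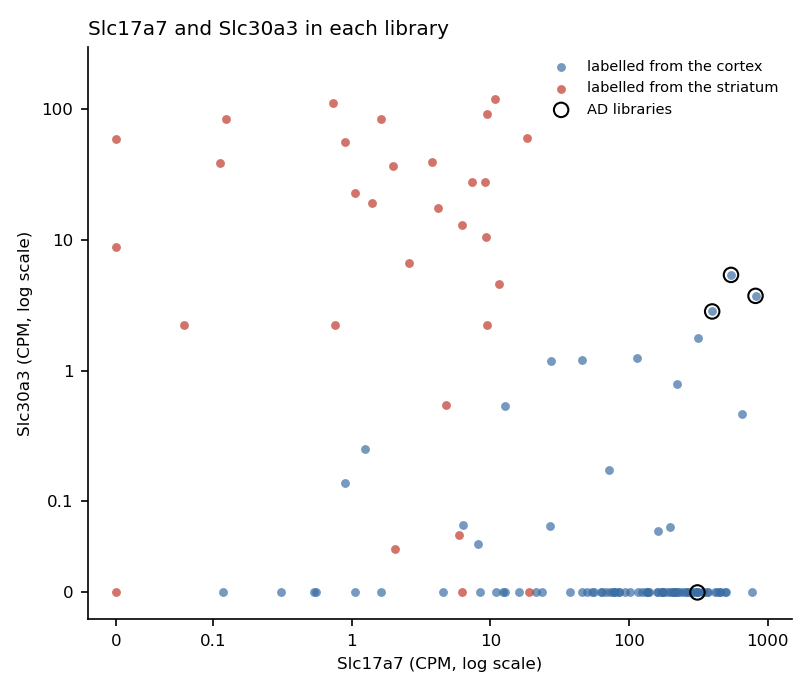
Level of Slc30a3 against that of Slc17a7 (CPM, log axes, libraries without a read drawn at 0) in 120 libraries, red labelled from the striatum and blue from the cortex, with the 4 AD libraries circled. No library exceeds 5.4 CPM of Slc30a3 once Slc17a7 exceeds 19.0 CPM, and AD reaches the highest Slc30a3 of the libraries rich in Slc17a7.

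Over the 22 nucleus means, log2 levels of Slc17a7 were related to Slc17a6 with r = -0.61 and to Slc30a3 with r = -0.65, and Slc17a6 to Slc30a3 with r = 0.61. These are descriptions over nuclei that share tracer and target. Within the 15 cortex-labelled nuclei the same values were -0.10, 0.12 and 0.06, and within the 7 striatum-labelled nuclei -0.80, 0.25 and 0.25.

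The sharpest difference between nuclei that share a target was within the retrosplenial group. Slc17a7 was 63.6-fold higher in AD than in AV (log2 fold change 5.99, SE 0.836, edgeR adjusted p = 1.87e-08) and 46.9-fold higher in LD than in AV (5.55, SE 0.807, adjusted p = 1.07e-07), where 5.69% and 5.5% of genes were called. No AV library reached the lowest AD or LD library. The same held inside single mice: 1 mouse gave 544 CPM in AD and 21.4 CPM in AV, a further one 398 and 0.309 CPM, and the third 312 and 12.8 CPM. In 3 mice that gave both LD and AV, LD held 262, 342 and 370 CPM and AV 23.6, 4.57 and 0.118 CPM. The AV libraries from mice over 400 days held 4.57, 0.118 and 0.553 CPM, and both calls held without the mice over 200 days.

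AD and LD did not differ by the test in Slc17a7 (0.44, SE 0.856, adjusted p = 0.858). Slc30a3 was higher in AD than in both of its neighbours (adjusted p = 0.00022 against AV and 0.00499 against LD, where 6.73% of genes were called in the latter), at least 103-fold higher than AV and at least 54.2-fold higher than LD, from the floor of 3 counts over the group. That rests on 3 of the 4 AD libraries, since 1 had no read. AD and LD shared no mouse and no amplification date, so nucleus, mouse and date cannot be told apart between them. Slc17a6 was not called in any pair of this group, with means of 1274 CPM in AD, 1189 CPM in LD and 1045 CPM in AV.

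Among the visual nuclei, LP held less Slc17a7 than LGd in every library, with a median of 173 CPM (84.6 to 261 CPM, n = 9) against 432 CPM (316 to 503 CPM, n = 5). The fit of all libraries did not call it (log2 fold change -1.32, SE 0.695, adjusted p = 0.363, where 3.62% of genes were called). A fit of LP and LGd alone gave the same fold with adjusted p = 0.000101, where 5.13% were called. The log2 ratio of Slc17a7 to Slc17a6 within libraries was 1.37 lower in LP (exact permutation test, two-sided, adjusted p = 0.00466 over 14 comparisons). Slc17a6 was not called, with means of 1073 and 1052 CPM (0.03, SE 0.161), and 6 mice gave cells to both nuclei.

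In the motor group the order of Slc17a7 was VL, VM and VA, with means of 283, 143 and 71.5 CPM. VM had no library on the date of the lower VL libraries (124 and 161 CPM). On the date that held all of them, VL held 306 to 457, VM 53.9 to 199 and VA 63.8 to 117 CPM. Libraries of VA (26.9 to 117 CPM, n = 8) and VL (124 to 457 CPM, n = 6) did not overlap, and the fit of all libraries gave a log2 fold change of -1.98 (SE 0.696, adjusted p = 0.116, where 2.21% of genes were called). The fit of VA and VL alone gave -2.00 with adjusted p = 0.000767, where 1.65% were called. VM overlapped both VL and VA and was not called against either, at -0.98 (SE 0.746, adjusted p = 0.736, background 1.69%) and, for VA minus VM, -1.001 (SE 0.687, adjusted p = 0.705, background 0.127%). In 3 mice that gave VL and VM on 1 date, VL held 308, 306 and 457 CPM and VM 199, 162 and 53.9 CPM. With the mouse as a block the VM and VL difference was called (-1.51, adjusted p = 0.0383, background 2.51%), and with the date as a block it was also called (-1.44, adjusted p = 0.0174, background 2%). It was not called in a fit of VM and VL alone (-0.97, adjusted p = 0.122) or by voom with the mouse as a random effect (-0.97, adjusted p = 0.109).

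The log2 ratio of Slc17a7 to Slc17a6 was 2.27 lower in VA than in VL (exact permutation, adjusted p = 0.00466) and 1.25 lower in VA than in VM (adjusted p = 0.0438). The latter passed narrowly and was lost in 9 of 14 leave-one-out repeats, whose adjusted p ran from 0.0152 to 0.107. For VM and VL the ratio differed by -1.02 (adjusted p = 0.121). Slc17a6 was not called in any motor pair. Slc30a3 held 1 library with reads in VA (0.0643 CPM), 1 in VL (0.059 CPM) and none in VM.

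In the somatosensory group PO and VB overlapped in Slc17a7 (172 to 280 CPM, n = 7, and 175 to 653 CPM, n = 4) and the difference was not called (-0.82, SE 0.787, adjusted p = 0.717, where 2.65% of genes were called). VB replicate 4, with the highest level, was made from 14 cells, the fewest of any library. The ratio to Slc17a6 was not called either (-0.52, adjusted p = 0.309), and without VB replicate 2 it was (-0.94, exact permutation, adjusted p = 0.0389).

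In the cingulate group it was Slc17a6 that differed. RE held less Slc17a6 than AM (log2 fold change -1.03, SE 0.171, adjusted p = 1.14e-05, where 1.84% of genes were called) and less than IAD (-1.13, SE 0.186, adjusted p = 6.77e-06, where 1.33% were called). The highest RE library, at 868 CPM, lay below the lowest AM library, at 1189 CPM, and the lowest IAD library, at 1518 CPM. Within 4 mice that gave both nuclei on 1 date, RE held 657, 602, 518 and 788 CPM and AM held 1598, 1189, 1738 and 1331 CPM.

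Slc17a7 was not called in this group by the fit of all libraries. RE minus AM gave 2.04 (SE 0.876, adjusted p = 0.354) over all libraries, and the opposite direction with the mouse as a block, which pairs the 4 mice that gave both nuclei (-2.10, SE 0.79, adjusted p = 0.289), or with the date as a block (-0.80, adjusted p = 0.696). IAD minus AM gave 1.48 (SE 0.985, adjusted p = 1, where 0% of genes were called) and RE minus IAD 0.56 (SE 0.898, adjusted p = 1). In IAD minus AM, edgeR put 504 genes at an unadjusted p under 0.05, and DESeq2 called 240. In the 4 mice above, RE held 1.25, 1.06, 0.897 and 16.1 CPM and AM 8.2, 10.9, 6.3 and 8.46 CPM, so RE was the lower in 3 of the 4. The RE libraries with 27.2 to 115 CPM all came from other mice and another date. In 3 of those, the same mouse gave 115, 71.8 and 27.2 CPM in RE and 46.0, 12.4 and 12.8 CPM in IAD. These IAD libraries were amplified on a later date.

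**Figure D4:**
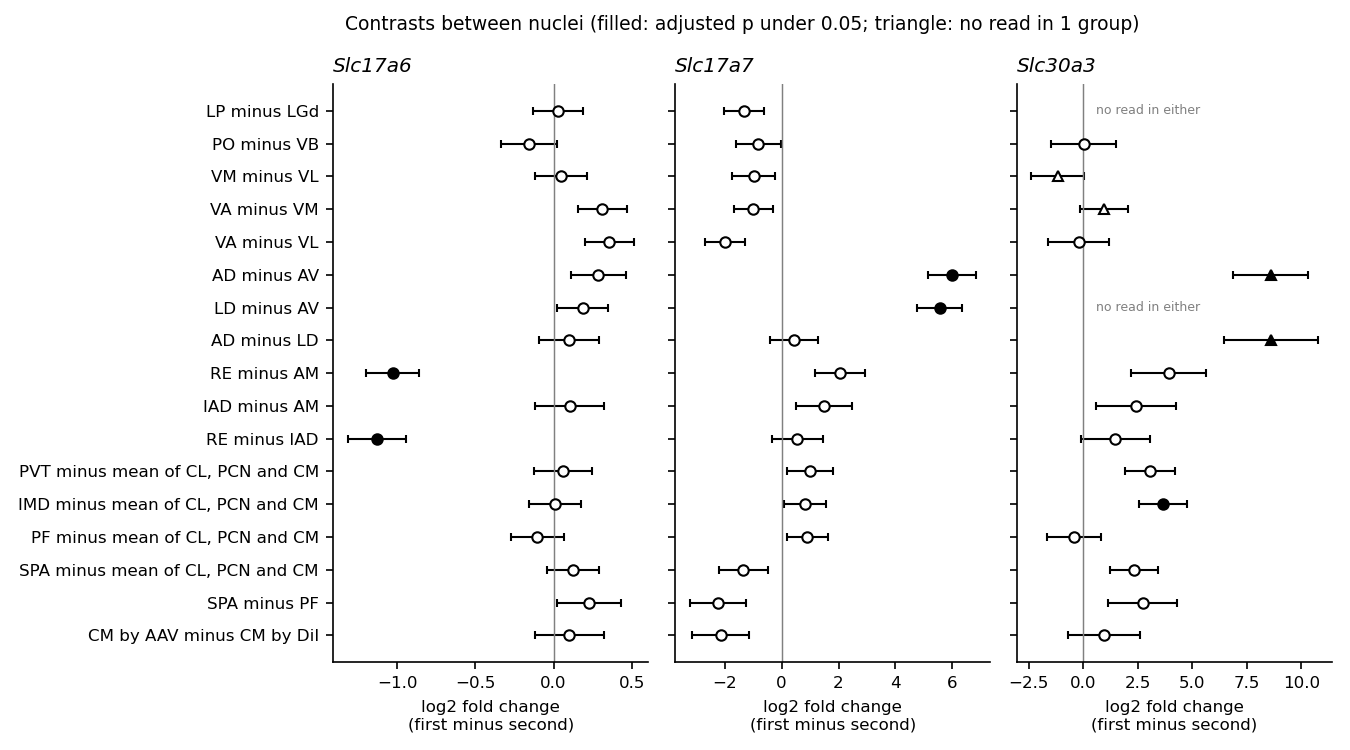
Log2 fold change (points) with its SE (bars) of Slc17a6, Slc17a7 and Slc30a3 in 17 contrasts between groups of libraries; filled points passed an adjusted p of 0.05 in the fit of all libraries, and triangles have no read in 1 of the groups, so their position depends on the fit's prior count. Slc17a7 is called in AD and LD against AV, Slc17a6 in RE against AM and IAD, and Slc30a3 in AD against AV and LD and in IMD.

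Within the striatum-labelled nuclei Slc30a3 in IMD gave the only called contrast, and no pair of nuclei was called for any of the transporters. IMD held more than the mean of CL, PCN and CM (log2 fold change 3.67, SE 1.10, adjusted p = 0.047, where 2.75% of genes were called), with 84.8 to 119 CPM in its 4 libraries against at most 36.8 CPM in the 12 others. The call lies at the threshold: it was lost in 15 of 16 leave-one-out repeats (adjusted p up to 0.109) and had adjusted p = 0.00107 without PCN replicate 3. PVT, at 56.1 to 84.5 CPM, also lay above all 12, and was not called (3.07, SE 1.17, adjusted p = 0.178, background 2.18%), but was without PCN replicate 3 (5.24, adjusted p = 0.00508). SPA minus the same mean gave 2.32 (SE 1.10, adjusted p = 0.298, background 3.44%) and 4.49 without PCN replicate 3 (adjusted p = 0.0127). All CL, PCN and CM libraries shared an amplification date that held no IMD, PVT or SPA library. Nucleus and date therefore cannot be told apart in these 3 contrasts. PCN and CM also held males, unlike IMD, PVT and SPA, and the part of sex was not tested.

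SPA and PF, which lie next to each other, did not overlap in Slc30a3 (22.7 to 58.8 against 2.23 to 10.6 CPM, n = 4 each). The fit of all libraries did not call this (2.73, SE 1.58, adjusted p = 0.9, background 0.309%), while a fit of SPA and PF alone did (2.72, adjusted p = 0.00184, background 8.17%). In 2 mice that gave both, SPA held 58.8 and 38.7 CPM and PF 2.23 and 4.63 CPM. All SPA libraries, also those of these mice, were amplified on a later date than the PF libraries. Nucleus and date therefore cannot be told apart here. PF minus the mean of CL, PCN and CM was not called (-0.41, SE 1.24, adjusted p = 1, background 0.0605%).

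Several mice gave a series of striatum-labelled nuclei, which shows the order of Slc30a3 inside an animal. In 3 mice IMD held 84.8, 119 and 91.8 CPM, PVT 84.5, 56.1 and 60.1 CPM, and CL 0.0551, 36.8 and 27.6 CPM. IMD was thus highest in each, by a narrow margin in the first. The IMD and PVT libraries of these mice shared an amplification date, while the CL libraries were amplified on a later date. In 4 mice CM held 2.22, 0.543, 19.2 and 17.7 CPM and PCN 0.043, 0, 8.83 and 0 CPM, with CM above PCN in all 4. Slc17a6 and Slc17a7 were not called in any of these contrasts.

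The genes whose nucleus means were most like those of each transporter were ranked by Pearson's r of log2 CPM over 22 nuclei, among 10559 genes with a highest nucleus mean of at least 10 CPM. Slc17a7 was followed most closely by Lrrc8b, a subunit of volume-regulated anion channels (r = 0.89), which stood at 205 ± 30.5 CPM in LGd (n = 5) and at 22.7 ± 19.8 CPM in PVT (n = 3). Lrrc8b also ranked first within the 15 cortex-labelled nuclei (r = 0.91). Gnal, a G protein subunit (0.89), Sema6a, a semaphorin (0.89), Arhgap21, a GTPase-activating protein (0.88), and Mgat5, a glycosyltransferase (0.88), came next. Rasd2, a striatum-enriched small GTPase (-0.88), the proteoglycan Sdc2 (-0.87) and the receptor Gpr151, the habenula marker above (-0.86), were most unlike. Sdc2 stood at 194 ± 28.1 CPM (n = 4) in IMD and 1.9 ± 2.19 CPM (n = 4) in VB.

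Slc30a3 was most like Gabre, a GABA-A receptor subunit (r = 0.94), Amph, amphiphysin (0.93), the growth factor Fgf16 (0.93), the cation channel Trpc6 (0.92) and Plpp3, a lipid phosphatase (0.92). Amph, at 436 ± 44.5 CPM (n = 4) in IMD and 105 ± 15.8 CPM (n = 6) in VM, kept r = 0.73 within the cortex-labelled nuclei. Gabre, Fgf16, Trpc6 and Plpp3 had r of 0.02, 0.00, -0.16 and -0.09 there. Most unlike were Fras1, an extracellular matrix protein (-0.93), Kcnc2, a voltage-gated potassium channel (-0.93), and Smim13 (-0.92). Kcnc2 stood at 1386 ± 231.1 CPM (n = 8) in AV and 207 ± 64.6 CPM (n = 3) in PVT.

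Slc17a6 was most like Ptpn20, a tyrosine phosphatase (0.80), the actin-binding villin Vil1 (0.79), the histone chaperone Nap1l1 (0.76), the pentraxin receptor Nptxr (0.75) and Itpripl2 (0.75). Nptxr spanned 28.7 ± 12.5 CPM (n = 4) in VB to 1557 ± 513 CPM (n = 4) in SPA. Bace2, a protease (-0.78), the kinesin Kif5c (-0.77) and Rpgrip1l (-0.76) were most unlike. Kif5c, a motor of axonal transport, stood at 832 ± 43.2 CPM (n = 6) in VL and 386 ± 38.3 CPM (n = 4) in SPA.

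Genes of the vesicle-loading pathway were read as lists. Other vesicular transmitter transporters and vesicle glycoproteins differed between nuclei in 8 of 9 tested, against 55.1% of all genes. The closest relative of the glutamate transporters, Slc17a8 (VGLUT3), was highest in VPMpc (77.9 ± 84.4 CPM, n = 6) and had no read in AD (edgeR adjusted p = 8.39e-18). Sv2b, a synaptic vesicle glycoprotein, was lowest in SPA (301 ± 72.1 CPM, n = 4), highest in LD (1210 ± 221 CPM, n = 5) and called in 120 pairs of nuclei. Slc18a2, the vesicular monoamine transporter, was lowest in PVT (5.57 ± 4.11 CPM, n = 3) and highest in VB (74.4 ± 42.8 CPM, n = 4). Sv2c was highest in RE (88.7 ± 40.0 CPM, n = 8). Slc32a1, the vesicular GABA transporter, was not analysed here.

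Between the 2 kinds of target, where 18.4% of genes were called, 1 of these transporters was higher and 2 lower in striatum-labelled nuclei. Sv2b was lower (442 ± 97.6 against 821 ± 228 CPM, log2 fold change -0.89, SE 0.179, adjusted p = 0.00136). Slc18a2 was lower (9.85 ± 3.76 against 37.0 ± 18.3 CPM, -1.91, SE 0.321, adjusted p = 0.000341). Slc10a4, an orphan transporter of synaptic vesicles, was higher (5.9 ± 6.65 against 0.374 ± 0.579 CPM, 3.98, SE 0.969, adjusted p = 0.00592).

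The vesicular ATPase, the proton pump that powers all 3 transporters, differed between nuclei in 15 of 19 subunit and accessory genes, against 55.1% of all genes. Of 18 tested between the kinds of target 5 were higher in striatum-labelled nuclei and none lower, against 8.58% and 9.8% of all genes, with a median log2 fold change of 0.31 beside -0.08 over all genes. The 5 were Atp6v0e2 (216 ± 55.3 against 119 ± 40.1 CPM), Atp6v1e1 (206 ± 44.3 against 121 ± 34.7 CPM), Atp6v0d1, Atp6v1c1 and Atp6v0b, with log2 fold changes of 0.37 to 0.85. Clcn3, a vesicular chloride-proton exchanger, was lower (171 ± 31.2 against 225 ± 38.8 CPM, -0.40, SE 0.128, adjusted p = 0.0319).

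Genes that supply glutamate differed between nuclei in 7 of 8 tested, against 55.1% of all genes. Got1, an aminotransferase, was lowest in VPMpc (236 ± 63.5 CPM, n = 6) and highest in VL (673 ± 40.9 CPM, n = 6). The glutamine transporters Slc38a1 (361 ± 74.1 against 542 ± 117 CPM, -0.59, SE 0.146, adjusted p = 0.00682) and Slc38a2 (103 ± 40.7 against 176 ± 47.8 CPM, -0.77, SE 0.222, adjusted p = 0.0173) were lower in striatum-labelled nuclei, 2 of 8 tested against 9.8% of all genes, and no member was higher.

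The counts for zinc genes stand beside 55.1% of all genes called over nuclei, and 8.58% called higher and 9.8% lower between targets. Among the other SLC30 zinc exporters 3 of 6 tested differed between nuclei, and between the kinds of target 1 was called: Slc30a4 was lower in striatum-labelled nuclei (43.4 ± 11.4 against 73.1 ± 14.3 CPM, -0.75, SE 0.171, adjusted p = 0.00356), opposite in direction to Slc30a3. Of the SLC39 zinc importers 3 of 9 tested differed between nuclei. Slc39a6 (113 ± 64.0 against 50.9 ± 20.7 CPM) and Slc39a11 were higher in striatum-labelled nuclei, and Slc39a14 (23.9 ± 5.61 against 42.2 ± 15.6 CPM) and Slc39a13 were lower. The metallothionein Mt2, a zinc-binding protein, was higher at a low level (2.88 ± 1.68 against 0.667 ± 0.514 CPM, 2.10, SE 0.529, adjusted p = 0.00741), and 2 of 4 tested in that list differed between nuclei. Of the AP-3 coat, which sorts ZnT3, 4 of 7 genes differed between nuclei. Ap3d1 was higher in striatum-labelled nuclei (181 ± 57.7 against 123 ± 30.1 CPM, 0.55, SE 0.168, adjusted p = 0.0227) and Ap3b1 lower (38.3 ± 11.7 against 66.3 ± 17.2 CPM, -0.79, SE 0.195, adjusted p = 0.0062).

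Over the 11 pairs of nuclei labelled from a shared cortical target, 2.85% of all gene-by-pair tests were called. The supply genes were called in 9 of 88 tests, 7 higher in the first nucleus of the pair and 2 lower, and the other vesicular transporters in 13 of 99. The SLC30 exporters, the AP-3 coat and the metallothioneins were called in none of 66, 77 and 44 tests. edgeR put 3, 6 and 3 of these at an unadjusted p under 0.05, and DESeq2 called 0, 1 and 1.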

How the data were processed

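Whole-number counts per gene and library were deposited by the authors, without normalization, with a table of tracer, animal and date. The submitters' processing notes name mm10, STAR 2.5.3a, featureCounts 1.52 and cutadapt 1.16; settings are not given in the sources used here. Libraries were grouped by title. Counts were fitted with edgeR 4.0.16 (R 4.3.3): TMM, filterByExpr (minimum count 10, 16527 genes kept), 1 coefficient per group and quasi-likelihood tests. CPM and SE were computed here. Counts summed per nucleus gave the comparison of targets. Ratios of Slc17a7 to Slc17a6 took a pseudocount of 0.5 CPM and exact permutation. Amplified reads without molecular identifiers are not independent molecules, so a floor covers counting error alone. The kit does not mark strand. Same-numbered libraries share a mouse in all 4 RE and AM pairs, which were therefore paired by the table, and in no other comparison throughout; correlations of their deviations were -0.13 to 0.07. DESeq2 1.42.0 was an alternative; others are listed at the end. The script was tested on simulated data. Named genes were the 3 transporters, the 5 genes most like and 3 most unlike each, up to 4 per pathway list by F, and those called between targets, the last chosen after their values were seen; 1 of the pathway genes is not reported here. The members and lists were chosen with earlier results of these data known.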

Additional observations from a re-analysis of the deposited data

Results flagged for a closer look

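In 9 of 54 groups of 4 to 10 libraries tested, 1 library lay farther from the others than Dixon's 95% critical value allows on the log2 scale. Chance meets this rule in about 1 in 20 groups where values are spread normally. That rate does not hold for Slc30a3 groups in which most libraries had no read, so 9 of 54 cannot be set against it. Slc17a6 stood at 1614 CPM in LP replicate 1 against 883 to 1096 CPM in the other LP libraries. For Slc30a3, 2 libraries lay below their group: AD replicate 1 had 0 CPM against 2.83 to 5.4 CPM, and CL replicate 2 had 0.0551 CPM against 27.6 to 36.8 CPM. PCN replicate 3 lay above its group, at 8.83 CPM against at most 0.043 CPM. The other flagged Slc30a3 libraries were nearly alone in having reads: MD replicate 1 (1.78 CPM), PO replicate 3 (0.784 CPM), VA replicate 3 (0.0643 CPM), VB replicate 4 (0.467 CPM) and VL replicate 1 (0.059 CPM). In MD, VA, VB and VL no other library of the group had a read, so any read met the rule.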

How the results depend on the processing

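Of 424 values recomputed beside the leave-one-out repeats, 379 counted as unchanged, 1 lost its call, 20 gained one, 15 reversed and 9 moved further. A share counted as unchanged where it moved by less than the SD. A number of called pairs or of like genes did so where it stayed within a set fold. Other values did so where direction and call were kept. RLE size factors, no filter on low counts, CM from DiI, the shared dates, mice under 200 days and both other pseudocounts changed no call of a contrast; RLE gave 79, 120 and 111 called pairs of nuclei for Slc17a6, Slc17a7 and Slc30a3, and no filter 63, 121 and 109. For Slc17a7, LP minus LGd was called in a fit of the 2 groups alone (-1.32), with the replicate block (-1.30), the date block (-1.27) and voom with the mouse as a random effect (-1.39), VA minus VL in the same 4 fits (-2.00, -2.09, -1.71 and -1.91), and VM minus VL with the animal block (-1.51) and date block (-1.44) but not the replicate block (-0.94, adjusted p = 0.232). For Slc30a3, PVT minus the mean of CL, PCN and CM was called with the replicate block (5.67), the animal block (6.17) and voom (5.26), SPA minus that mean with the replicate block (4.15) and voom (4.43), and SPA minus PF in a fit alone (2.72), with the replicate block (2.85) and the animal block (3.87). The replicate block reversed Slc17a7 in RE minus IAD, and the reversed value was called (-4.19, edgeR adjusted p = 0.00104, background 3.44%). Its estimate rests on 3 of the 8 RE libraries, with 0.897 to 1.25 CPM, all of 1 date. Same-numbered RE and IAD libraries share no mouse, so that block does not pair mice. In RE minus AM, where the replicate numbers pair the mice, the replicate block and animal block also reversed Slc17a7, from 2.04 to -2.10, as did the date block (-0.80), none of them called. Other reversals were of uncalled values: for Slc17a7, RE minus IAD by voom (-0.49); for Slc30a3, PF minus the mean with the replicate block (1.44) and voom (1.57) and PO minus VB by voom (-0.34); for Slc17a6, LP minus LGd (-0.071) and LD minus AV (-0.17) with the date block, VM minus VL with the animal block (-0.067), AD minus LD in mice under 200 days (-0.10), and IMD minus the mean with no filter (-0.014), in a fit alone (-0.0095) and with the replicate block (-0.0042). DESeq2 did not call IMD minus the mean in Slc30a3 (3.73, adjusted p = 0.267), and called VM minus VL (-15.5) and VA minus VM (15.1), where 1 library in all had reads. The causes of the other changes were not tested. Leaving out 1 library at a time in groups of up to 8, with the dispersions of the full fit, gave 2.86 to 5.24 for PVT minus the mean, 3.53 to 5.84 for IMD, 2.07 to 4.49 for SPA, and for the log2 ratio -0.94 to -0.13 in PO minus VB and -1.48 to -0.96 in VA minus VM. It also turned the sign of uncalled values: for Slc17a7, PVT minus the mean (-2.67 to 1.58) and RE minus IAD (-0.018 to 1.47); for the ratio, PVT minus IMD (-2.21 to 0.23); for Slc30a3, PF minus the mean (-0.83 to 1.77), VA minus VL (-1.16 to 0.95), IAD minus AM (-2.19 to 2.99) and PO minus VB (-2.78 to 4.12); for Slc17a6, IMD minus the mean (-0.052 to 0.069), VM minus VL (-0.032 to 0.12) and LP minus LGd (-0.0069 to 0.10). Of the 5 genes most like each transporter, Spearman's correlation kept 2 for Slc17a6, 2 for Slc17a7 and 1 for Slc30a3 among its first 5, and the cortex-labelled nuclei alone kept 0, 1 and 0. With the length of all annotated exons the Slc17a7 share fell in every group, for example from 35.7 to 28.4% in AD and from 34.6 to 27.65% in VB. The fall was larger than the SD in LGd (to 28.7%) and PO (to 20.05%). AM by AAV (to 0.0308%) also counted as moved, as a single library without an SD. Below about 1 CPM, levels of Slc30a3 and Slc17a7 rest on few reads from few cells.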
